A study of Mus musculus with 23 samples.

Results

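The comparison concerned mouse β-TC6 cells that lack a functional *Clock* gene. Of the 23 samples of the series, 6 RNA-seq libraries were chosen by their labels, 3 of *Clock*-/- and 3 of WT cells. Tested was the TPM (transcript abundance scaled to gene length and to the total of the library) of 15031 of the 20599 genes in the table, those at 1 TPM or more in at least 3 of the 9 RNA-seq libraries. β-TC6 is an insulin-producing line derived from mouse pancreatic β cells. In *Clock*-/- cells exons 6 and 7 of *Clock*, which encode its DNA-binding domain, had been removed by CRISPR-Cas9 with homology-directed repair. The cells had been selected with puromycin and a single colony had been picked by hand. The other 3 libraries were of *Bmal1*-/- cells, a separate neomycin-selected colony that lacks exon 8 of *Bmal1*, and they entered here for the estimate of the spread and for a direct comparison of the knockout lines. All cells were between passages 5 and 15, were grown in DMEM with serum and received no treatment, and each group was harvested in triplicate from six-well plates. Whether the cells of these libraries were synchronized, and at which circadian time they were harvested, is not given in the sources used here, so the levels of clock genes are those of an unstated phase. Since each line was 1 clone, an effect of the genotype and a property of the clone cannot be told apart, and p-values measure the spread between wells.

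CLOCK is a basic helix-loop-helix transcription factor that pairs with BMAL1, and the pair binds E-box sequences and drives transcription of the *Per* and *Cry* genes, whose proteins return to the nucleus and repress it. A second loop runs through the nuclear receptors REV-ERB and ROR, which repress and activate *Bmal1* (*Arntl* in the annotation). NPAS2 is a close relative of CLOCK that can take its place beside BMAL1. In pancreatic β cells the clock is known for its part in the daily course of insulin secretion.

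The RNA-seq libraries of a group resembled each other more than those of the other group, with Pearson correlations of log2(TPM + 1) over genes of 0.976 to 0.990 within and 0.939 to 0.952 between the WT and *Clock*-/- groups. Between 687 and 905 genes were listed at 0 TPM in WT libraries and between 791 and 1010 in *Clock*-/- libraries. The mitochondrial genome gave 4.99 to 5.76% of TPM in WT and 5.78 to 6.82% in *Clock*-/- libraries. TPM keeps no count of reads, so the depth behind each value cannot be read from the table. Fold changes are *Clock*-/- over WT on the log2(TPM + 1) scale, with the standard error (SE) and the Benjamini-Hochberg adjusted p of limma over all genes tested. On this scale the change of a gene with a low level is understated. A gene is said to have risen or fallen at an adjusted p under 0.01, and to have been called where the log2 fold change also exceeded 1 in size. Counts of list members are to be read beside the 9.50% of all genes tested that rose and the 14.4% that fell. With 1 library left out, 936 to 1596 of all genes tested rose and 1443 to 2656 fell, in place of 1428 and 2162. List counts without a library are to be read beside these. The WT and *Clock*-/- groups did not overlap in 6989 (46.5%) of the genes tested, so a lack of overlap was common.

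*Clock* (chromosome 5 from 76209868 to 76304792, GRCm38) was at 49.7, 46.7 and 40.9 TPM in WT and at 36.0, 28.0 and 46.6 TPM in *Clock*-/- libraries. The groups overlapped, and the log2 fold change of −0.33 (SE 0.16) had an adjusted p of 0.137. The deleted exons are a small part of the transcript, so a TPM of the whole gene does not check the deletion.

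Of the 25 clock genes tested, 7 rose and 4 fell, beside 9.50% and 14.4% of all genes tested (23.9% in both directions). Both other activators were higher. *Npas2* was at 0.0331, 0 and 0.0381 TPM in WT and at 2.99, 3.50 and 4.60 TPM in *Clock*-/- libraries. It was next to absent in WT cells and present in all 3 knockout libraries (log2 fold change 2.18, SE 0.16, adjusted p = 5.08e-06). In *Bmal1*-/- cells *Npas2* was listed at 0 in all 3 libraries, and the knockout lines differed by 2.22 (adjusted p = 2.52e-06). The lines differed from each other at this threshold in 44.6% of all genes tested, and values against WT in either line share the WT libraries. *Arntl* was at 3.63, 3.52 and 4.22 TPM in WT and at 13.2, 10.6 and 16.2 TPM in *Clock*-/- libraries. All knockout libraries lay above all WT libraries (log2 fold change 1.57, SE 0.15, adjusted p = 3.09e-05).

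The nuclear receptors showed the largest falls among the clock genes. *Nr1d2*, which encodes REV-ERBβ, was at 97.3, 82.1 and 76.1 TPM in WT and at 7.14, 6.50 and 9.13 TPM in *Clock*-/- libraries. The groups were far apart (log2 fold change −3.33, SE 0.16, adjusted p = 3.57e-07). *Nr1d1*, which encodes REV-ERBα, was at 7.68, 8.32 and 9.07 TPM in WT and at 2.17, 1.51 and 2.10 TPM in *Clock*-/- libraries (log2 fold change −1.68, SE 0.16, adjusted p = 2.98e-05). Both were also lower in *Clock*-/- than in *Bmal1*-/- cells, *Nr1d2* by a log2 difference of −0.70 (adjusted p = 0.004) and *Nr1d1* by −0.90 (adjusted p = 0.000825). *Rora* did not pass the test (log2 fold change −0.15, adjusted p = 0.49).

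The repressors moved in both directions. *Cry1* was at 34.4, 29.8 and 26.9 TPM in WT and at 75.4, 62.7 and 79.7 TPM in *Clock*-/- libraries, without overlap (log2 fold change 1.23, SE 0.11, adjusted p = 2.08e-05). *Per3* was at 12.7, 12.7 and 10.9 TPM in WT and at 3.21, 2.46 and 4.08 TPM in *Clock*-/- libraries, also without overlap (log2 fold change −1.64, SE 0.16, adjusted p = 3.81e-05). *Per1* fell from 21.3, 19.8 and 18.6 TPM to 12.1, 9.32 and 14.1 TPM (log2 fold change −0.72, SE 0.13, adjusted p = 0.00205). The *Per1* groups were closer to each other than those of *Per3*. *Cry2* rose from 12.2, 10.1 and 10.2 TPM to 18.2, 15.3 and 20.7 TPM (log2 fold change 0.68, SE 0.14, adjusted p = 0.00375). The changes of *Per1* and *Cry2* passed the test only with single libraries included, as the adjusted p of *Per1* was 0.0111 without WT replicate 1 and that of *Cry2* was 0.0191, 0.0157 and 0.0159 without WT replicate 2, WT replicate 3 and *Clock*-/- replicate 1. *Per1* also missed the threshold with only the 6 WT and *Clock*-/- libraries fitted. *Per2*, the partner of *Per1* in the repressor complex, overlapped between the groups, at 18.9, 16.6 and 17.4 TPM in WT and 24.7, 18.7 and 29.9 TPM in *Clock*-/- libraries (log2 fold change 0.43, adjusted p = 0.0426), and passed without *Clock*-/- replicate 2 (log2 fold change 0.60, adjusted p = 0.00176). *Ciart*, a repressor of the CLOCK:BMAL1 pair, was at 9.05, 8.23 and 9.44 TPM in WT and at 9.01, 7.68 and 9.29 TPM in *Clock*-/- libraries (adjusted p = 0.861).

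Most output genes were near their WT level. *Bhlhe41*, which encodes the E-box repressor DEC2, rose from 12.4, 12.5 and 11.2 TPM to 17.2, 18.0 and 18.3 TPM (log2 fold change 0.53, SE 0.08, adjusted p = 0.000673). *Dbp*, the PAR bZIP factor often read as a reporter of CLOCK:BMAL1 activity, was at 20.7 ± 1.15 TPM in WT and at 23.8 ± 0.873 TPM in *Clock*-/- cells (SD, n = 3 each), and this difference of 0.19 missed the threshold (adjusted p = 0.0686). *Nfil3*, a repressor of the same sites, was at 32.1 ± 0.609 TPM in WT and 32.1 ± 3.16 TPM in *Clock*-/- cells (SD, n = 3 each), and at 72.6 ± 1.93 TPM in *Bmal1*-/- cells, where it differed from *Clock*-/- cells by −1.16 (adjusted p = 2.1e-06). *Hlf*, another PAR bZIP gene, was at 8.31, 8.33 and 7.29 TPM in WT and at 12.7, 10.7 and 16.1 TPM in *Clock*-/- libraries (log2 fold change 0.64, adjusted p = 0.00492), and its adjusted p lay between 0.0144 and 0.0205 without any of WT replicates 1 to 3 or *Clock*-/- replicate 1. It also missed the threshold with only the 6 WT and *Clock*-/- libraries fitted.

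**Figure D1:**
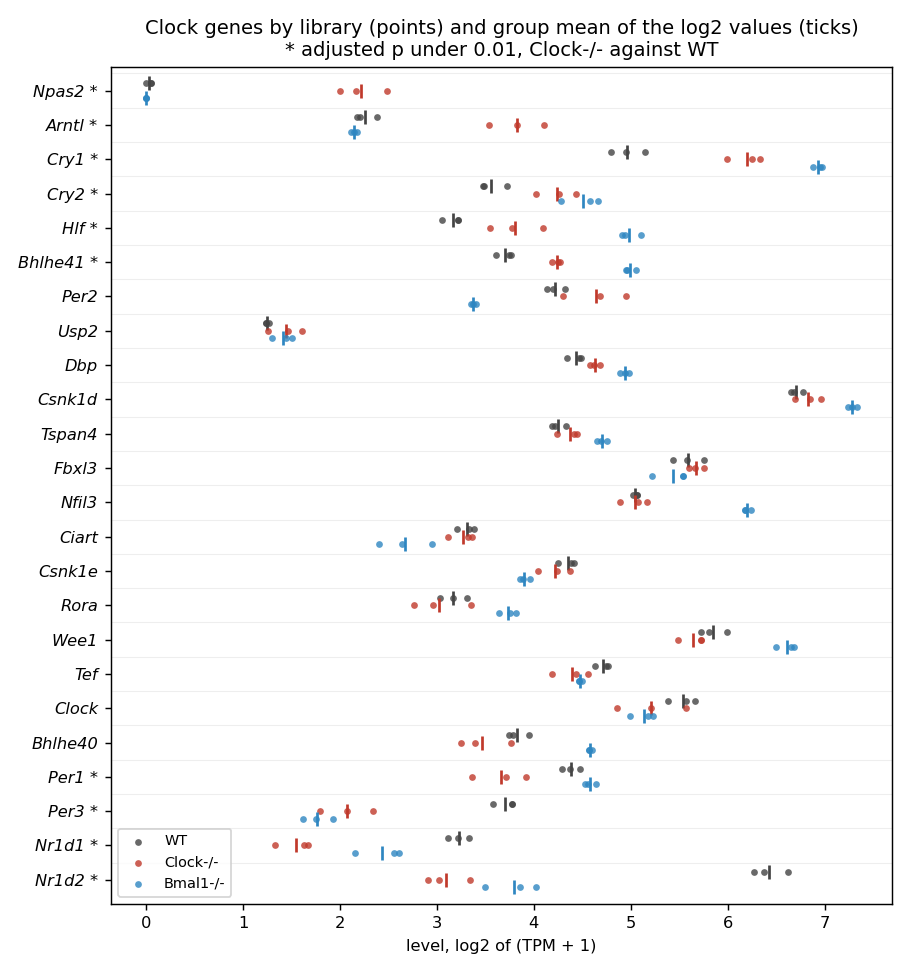
Each row is a clock gene tested, 1 of the 25 left out, ordered by its fold change in *Clock*-/- cells. The horizontal axis gives the level as log2(TPM + 1), points are libraries, ticks are means of the 3 log2 values of a group, and an asterisk marks an adjusted p under 0.01. *Npas2* lies at the top with its *Clock*-/- libraries to the right of WT, and *Nr1d1* and *Nr1d2* at the bottom with *Clock*-/- libraries to the left of both other groups.

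The E-box that the CLOCK:BMAL1 pair binds was searched as CACGTG, which reads the same on both strands, in RefSeq promoters of GRCm38.p6 from 250 bases before to 50 after the start. It was found in 9.85% of the 13213 promoters of the 10296 genes tested that had an entry. The promoters of 4 genes with the motif are shown because they share it while 1 gene fell, 2 rose and 1 did not pass the test. The motif is in capitals and begins 166 bases before the start in *Per1* (chr11:69098699-69098998, plus strand), 60 in *Cry1* (chr10:85185005-85185304, minus strand), 116, 58 and 44 in *Ciart* (chr3:95882179-95882478, minus strand) and 66 in *Cck* (chr9:121495645-121495944, minus strand).
Per1: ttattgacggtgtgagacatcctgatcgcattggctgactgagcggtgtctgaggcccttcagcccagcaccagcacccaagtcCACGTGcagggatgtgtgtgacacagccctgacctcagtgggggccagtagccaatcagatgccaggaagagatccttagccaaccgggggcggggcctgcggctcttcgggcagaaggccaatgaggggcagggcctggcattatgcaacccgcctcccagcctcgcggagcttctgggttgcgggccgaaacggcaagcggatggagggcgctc
Cry1: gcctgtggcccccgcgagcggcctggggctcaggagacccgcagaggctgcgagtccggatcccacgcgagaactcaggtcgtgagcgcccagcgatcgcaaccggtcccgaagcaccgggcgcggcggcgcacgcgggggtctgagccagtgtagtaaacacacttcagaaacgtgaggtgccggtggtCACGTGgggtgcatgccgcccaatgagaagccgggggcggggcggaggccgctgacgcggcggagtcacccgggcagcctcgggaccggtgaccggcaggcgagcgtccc
Ciart: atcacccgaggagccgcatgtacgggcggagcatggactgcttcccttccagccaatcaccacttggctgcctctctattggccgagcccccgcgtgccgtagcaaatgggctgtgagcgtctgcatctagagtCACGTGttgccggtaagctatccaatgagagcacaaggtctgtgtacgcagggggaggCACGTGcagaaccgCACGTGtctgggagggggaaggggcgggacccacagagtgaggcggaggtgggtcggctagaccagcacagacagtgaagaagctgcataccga
Cck: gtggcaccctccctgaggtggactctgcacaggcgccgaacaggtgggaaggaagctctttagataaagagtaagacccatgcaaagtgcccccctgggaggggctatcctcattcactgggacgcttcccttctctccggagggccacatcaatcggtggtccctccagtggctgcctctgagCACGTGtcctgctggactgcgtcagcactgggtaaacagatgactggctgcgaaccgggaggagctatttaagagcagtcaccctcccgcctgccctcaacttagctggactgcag
*Per1* was the gene that fell, *Cry1* and the hormone gene *Cck* were those that rose, and *Ciart*, which holds the motif 3 times, was the gene that did not pass. The windows of *Nr1d1*, *Nr1d2*, *Per3*, *Arntl* and *Npas2* do not hold these letters. Only 227 of the 394 genes called higher and 504 of the 719 called lower had a promoter entry, so a comparison of motif shares between them and all genes tested is void.

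Across all genes, 1113 (7.40%) were called, 394 of them higher (2.62%) and 719 lower (4.78%) in *Clock*-/- cells. The falls reached further, since 55 of the called genes were lower by more than 3 on the log2 scale and 19 were higher by more than 3. Among called genes with a mean of 100 TPM or more in the higher group, 43 were higher and 52 lower. The median log2 fold change of all genes tested was −0.02.

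Several abundant transcripts were almost lost. *Mrc2*, which encodes the collagen receptor Endo180, was at 136, 131 and 129 TPM in WT and at 5.32, 4.14 and 5.87 TPM in *Clock*-/- libraries (log2 fold change −4.45, SE 0.10, adjusted p = 3.45e-09). It stayed at 76.0 ± 1.92 TPM in *Bmal1*-/- cells (SD, n = 3), a difference of −3.66 between the lines (adjusted p = 6.38e-09). *Tex101*, a surface protein best known from germ cells, was at 37.4, 39.1 and 36.3 TPM in WT and at 0.492, 0.974 and 0.122 TPM in *Clock*-/- libraries (log2 fold change −4.70, adjusted p = 4.42e-07). *Gdf10*, a ligand of the BMP family, went from 26.6, 26.4 and 29.4 TPM to 0.260, 0.322 and 0.242 TPM (log2 fold change −4.48, adjusted p = 1.69e-08). The largest changes were taken only from genes whose groups did not overlap, so the lack of overlap is no result here. *Tex101* and *Gdf10* were also low in *Bmal1*-/- cells, at 0.848 ± 0.456 and 0.560 ± 0.183 TPM (SD, n = 3 each), with no difference past the threshold between the lines (adjusted p = 0.329 and 0.0826). The X-linked homeobox gene *Gm9* was at 42.1, 37.8 and 40.2 TPM in WT, was listed at 0 in all *Clock*-/- libraries, and lies among the nearly identical *Rhox2* copies, between which reads may have been split.

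Among the largest rises were genes of receptors and signals. *Tnfrsf26*, a decoy receptor of the TNF receptor family, was at 1.08 ± 0.212 TPM in WT and at 46.7 ± 0.983 TPM in *Clock*-/- cells (SD, n = 3 each; log2 fold change 4.52, SE 0.12, adjusted p = 7.72e-09). *Il4*, the gene of interleukin-4, rose from 5.04, 5.15 and 6.10 TPM to 75.4, 79.1 and 58.8 TPM (log2 fold change 3.48, SE 0.13, adjusted p = 8.84e-08). *Opn5*, which encodes the violet-sensitive opsin neuropsin, rose from 16.9, 14.8 and 15.8 TPM to 89.5, 90.8 and 92.8 TPM (log2 fold change 2.45, adjusted p = 8.61e-08). A lack of overlap was a condition for naming these 3 genes. All were lower in *Bmal1*-/- than in *Clock*-/- cells, at 2.73 ± 0.311 TPM for *Tnfrsf26*, 3.63 ± 0.443 TPM for *Il4* and 3.89 ± 0.481 TPM for *Opn5* (SD, n = 3 each; adjusted p = 1.57e-08, 2.33e-08 and 1.79e-09 between the lines). A signalling inhibitor and a non-coding RNA were also among the largest rises. *Shisa2*, an inhibitor of Wnt and FGF receptor maturation, rose from 10.8 ± 0.465 to 88.9 ± 9.27 TPM (log2 fold change 2.93, adjusted p = 3.46e-08). The non-coding RNA *Crnde* rose from 12.7 ± 1.99 to 70.8 ± 5.01 TPM (log2 fold change 2.39, adjusted p = 3.73e-07).

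**Figure D2:**
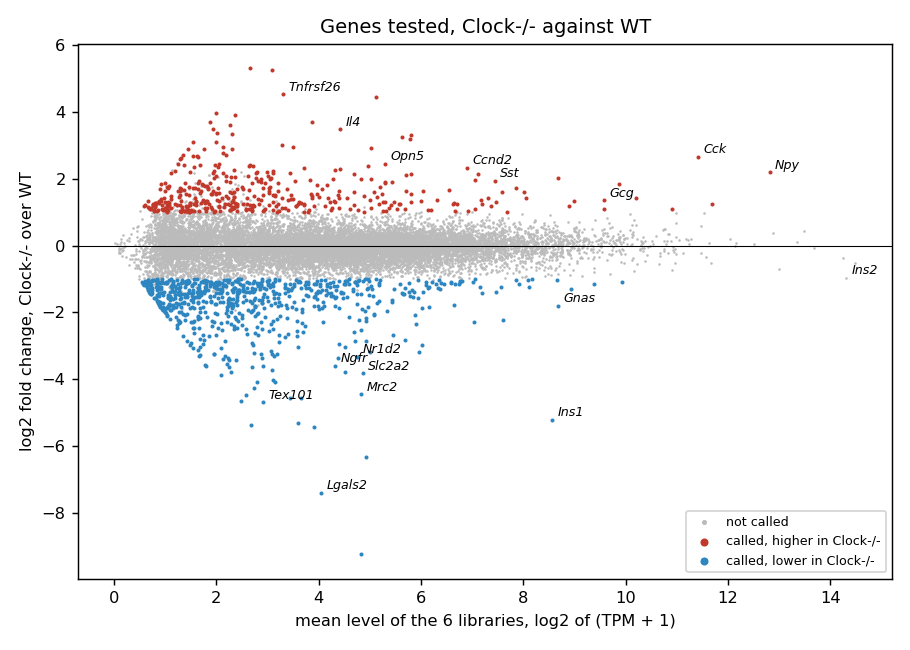
Each point is 1 of the 15031 genes tested, with its mean level over the 6 WT and *Clock*-/- libraries as log2(TPM + 1) on the horizontal axis and its log2 fold change on the vertical axis. Called genes are coloured, and *Npy*, *Cck* and *Ins2* are the labelled genes farthest to the right.

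The hormone genes of the cells were rearranged rather than uniformly lowered. Of the 16 islet hormone and peptide genes tested of 22 listed, 6 rose and 8 fell, with 4 called in each direction. The number that fell was 5 without WT replicate 2, WT replicate 3 or *Clock*-/- replicate 1. *Npy*, which encodes neuropeptide Y, was at 3216, 3319 and 3552 TPM in WT and at 15515, 17211 and 13540.3 TPM in *Clock*-/- libraries. Each knockout library lay several times above every WT library (log2 fold change 2.19, SE 0.10, adjusted p = 1.87e-07), and *Npy* stood above *Ins2* in each of the 3, where *Ins2* was at 14630.4, 16407 and 12659.6 TPM. *Cck*, the gene of cholecystokinin, was at 1025, 1039 and 1208 TPM in WT and at 6834, 7712 and 6056 TPM in *Clock*-/- libraries (log2 fold change 2.65, SE 0.10, adjusted p = 1e-07). In *Bmal1*-/- cells *Npy* was at 9496 ± 358 TPM and *Cck* at 1734 ± 129 TPM (SD, n = 3 each), lower than in *Clock*-/- cells by 0.69 and 1.98 on the log2 scale (adjusted p = 0.00018 and 4.21e-07).

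The main hormones of α and δ cells rose as well. *Gcg*, the glucagon gene of α cells, was at 475, 493 and 462 TPM in WT and at 1308, 1155 and 1211 TPM in *Clock*-/- libraries (log2 fold change 1.36, SE 0.06, adjusted p = 3.51e-07). *Sst*, the somatostatin gene of δ cells, was at 88.2, 82.9 and 92.9 TPM in WT and at 365, 373 and 287 TPM in *Clock*-/- libraries (log2 fold change 1.94, SE 0.13, adjusted p = 3.26e-06). No knockout library of either gene reached down to the WT values, and both genes stood lower in *Bmal1*-/- cells, at 52.2 ± 2.44 TPM for *Gcg* and 20.5 ± 3.23 TPM for *Sst* (SD, n = 3 each). The knockout lines differed in both genes (adjusted p = 1.69e-10 for *Gcg* and 1.84e-08 for *Sst*). In bulk RNA a change in the number of cells that make a transcript and a change in the amount per cell cannot be told apart. *Adcyap1*, the gene of the peptide PACAP, rose by 0.67 (adjusted p = 0.00221, and 0.0122 without WT replicate 1).

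Among the hormone genes that fell, *Ins1* was at 2277, 2359 and 2284 TPM in WT and at 61.4, 64.0 and 57.7 TPM in *Clock*-/- libraries, while *Ins2* was at 27105, 29444 and 28251 TPM in WT. The insulin genes therefore fell by unequal amounts, with log2 fold changes of −5.22 (SE 0.07) for *Ins1* and −0.96 (SE 0.11) for *Ins2*, though their near-identical sequence makes the split of reads between them uncertain. Together they held 2.94 to 3.18% of TPM in WT and 1.27 to 1.65% in *Clock*-/- libraries. In *Bmal1*-/- cells *Ins1* was at 2361 ± 188 TPM and *Ins2* at 20000 ± 1565 TPM (SD, n = 3 each). The knockout lines differed by −5.25 in *Ins1* and −0.46 in *Ins2* on the log2 scale (adjusted p = 1.66e-10 and 0.00503). *Gal*, which encodes galanin, an inhibitor of insulin release, was at 54.4, 68.1 and 69.2 TPM in WT and at 13.5, 16.2 and 10.5 TPM in *Clock*-/- libraries (log2 fold change −2.18, SE 0.15, adjusted p = 3.89e-06). *Gast*, the gastrin gene, went from 16.2, 22.6 and 27.4 TPM to 5.31, 8.33 and 5.71 TPM (log2 fold change −1.62, SE 0.30, adjusted p = 0.00225). That call was lost, with adjusted p-values of 0.011, 0.0108 and 0.0115 without WT replicate 2, WT replicate 3 and *Clock*-/- replicate 1. *Ucn3*, the urocortin 3 gene that marks mature β cells, was at 1.40, 1.27 and 1.48 TPM in WT and at 0, 0 and 0.137 TPM in *Clock*-/- libraries (log2 fold change −1.19, SE 0.16, adjusted p = 0.000296). Its level in *Bmal1*-/- cells was 1.56 ± 0.393 TPM (SD, n = 3). *Nucb2*, the gene of nesfatin, fell from 189 ± 4.90 to 118 ± 8.24 TPM (SD, n = 3 each; log2 fold change −0.68, adjusted p = 3.36e-05). The WT and *Clock*-/- groups of these genes did not overlap, as was so for 46.5% of all genes tested. *Iapp*, the amylin gene, was at 22115 ± 743 TPM in WT and 17039 ± 1675 TPM in *Clock*-/- cells (log2 fold change −0.38, adjusted p = 0.00934). Whether *Iapp* passed depended on single libraries, with an adjusted p of 0.0154 to 0.0363 without any of WT replicates 1 to 3 or *Clock*-/- replicates 1 and 3, and under quantile normalization its log2 fold change was 0.27 (adjusted p = 0.183).

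**Figure D3:**
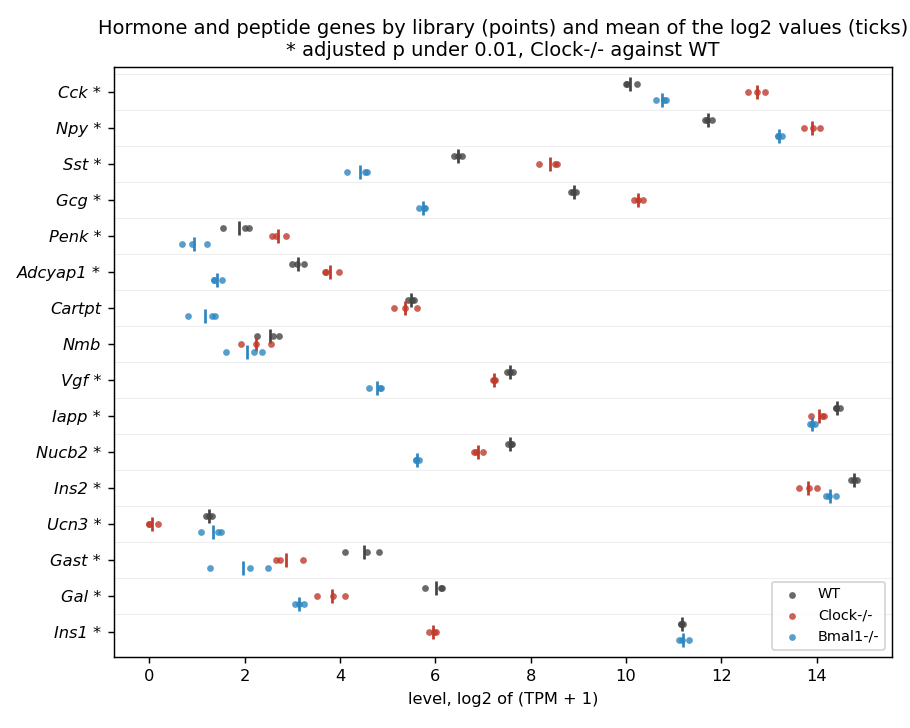
Each row is an islet hormone or peptide gene tested, ordered by fold change, with the level as log2(TPM + 1) on the horizontal axis. Points are libraries, ticks are means of the 3 log2 values of a group, and an asterisk marks an adjusted p under 0.01. *Cck*, *Npy*, *Sst* and *Gcg* have their *Clock*-/- libraries to the right of both other groups, and *Ins1* has them far to the left.

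Genes of the secretory granule and of prohormone processing fell more often than they rose, with 11 of 23 tested lower, 4 higher and a median log2 fold change of −0.28. *Pam*, the enzyme that amidates peptide hormones, was at 146, 129 and 126 TPM in WT and at 38.6, 31.4 and 40.3 TPM in *Clock*-/- libraries (log2 fold change −1.84, SE 0.10, adjusted p = 7.77e-07). In *Bmal1*-/- cells *Pam* was at 35.4 ± 1.06 TPM (SD, n = 3), a log2 difference of 0.05 between the knockout lines (adjusted p = 0.71). The granule proteins *Resp18* and *Ptprn* fell from 1424 ± 48.6 to 674 ± 48.1 TPM and from 1117 ± 55.0 to 619 ± 81.8 TPM (SD, n = 3 each), and secretogranin II (*Scg2*) from 10537 ± 622 to 6422 ± 251 TPM. Their log2 fold changes of −1.08, −0.86 and −0.71 were past the threshold (adjusted p = 1.59e-06, 0.000107 and 5.79e-05). Against this direction, *Qpct*, glutaminyl cyclase, rose from 93.7, 92.0 and 82.1 TPM to 204, 189.6 and 186 TPM (log2 fold change 1.11, adjusted p = 2.69e-06). *Slc18a1*, the vesicular monoamine transporter VMAT1, rose from 6.82, 6.57 and 4.73 TPM to 17.4, 14.9 and 20.1 TPM (log2 fold change 1.40, adjusted p = 0.000112). Both genes were higher in every knockout library than in any WT library. The prohormone convertase gene *Pcsk1* and carboxypeptidase E (*Cpe*) did not pass the test, with log2 fold changes of −0.28 and 0.20.

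Transcription factors of β cells and islet progenitors moved in both directions, with 11 of 39 tested higher and 9 lower. Without WT replicate 1 these counts were 8 and 6, and without *Clock*-/- replicate 3 they were 9 and 13. *Pax4*, a repressor required for the β and δ lineages, was at 11.6, 11.8 and 10.9 TPM in WT and at 0.338, 0.698 and 0.419 TPM in *Clock*-/- libraries. The transcript was all but gone (log2 fold change −3.07, SE 0.12, adjusted p = 1e-07), while *Bmal1*-/- libraries held 14.9, 17.1 and 15.8 TPM, a difference of −3.52 between the lines (adjusted p = 2.35e-08). *Nkx2-2*, which β cells need to keep their identity, fell from 106, 107 and 102 TPM to 37.1, 28.6 and 40.2 TPM (log2 fold change −1.56, SE 0.11, adjusted p = 3.87e-06). *Mnx1*, another homeobox gene of β cells, fell from 44.0, 42.3 and 44.9 TPM to 15.4, 12.2 and 19.3 TPM (log2 fold change −1.45, SE 0.14, adjusted p = 3.22e-05). Both stayed clearly expressed in the knockout, and their groups did not overlap. Against these, *Rfx6*, a winged-helix factor of endocrine precursors, rose from 38.5, 42.0 and 30.8 TPM to 117, 95.1 and 137 TPM (log2 fold change 1.62, SE 0.15, adjusted p = 2.7e-05). The homeobox gene *Nkx6-1* rose from 265 ± 13.2 to 505 ± 31.4 TPM (SD, n = 3 each; log2 fold change 0.93, adjusted p = 4.07e-06). *Pdx1*, the factor that sets up the pancreas and later maintains β cells, rose from 491 ± 9.65 to 692 ± 71.3 TPM (log2 fold change 0.49, adjusted p = 0.000686). The knockout libraries of these factors lay above all WT libraries. *Foxa1*, a pioneer factor of endoderm, rose from 0.647, 0.803 and 0.915 TPM to 7.00, 9.05 and 6.27 TPM (log2 fold change 2.23, adjusted p = 2.4e-06). *Mafa*, the activator of the insulin gene in mature β cells, was at 838, 899.5 and 905 TPM in WT and at 959, 889 and 1161 TPM in *Clock*-/- libraries, with overlap (log2 fold change 0.18, adjusted p = 0.172).

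In glucose uptake and its coupling to secretion, 9 of 27 genes tested rose and 5 fell (8 without *Clock*-/- replicate 3). *Slc2a2*, the gene of the glucose transporter GLUT2, was at 111, 113 and 102 TPM in WT and at 5.80, 6.35 and 8.25 TPM in *Clock*-/- libraries (log2 fold change −3.83, SE 0.15, adjusted p = 1e-07). *G6pc2*, an islet glucose-6-phosphatase that works against glucose use, rose from 1487, 1486 and 1376 TPM to 2999, 2642 and 2919 TPM (log2 fold change 0.98, SE 0.08, adjusted p = 8.95e-06). *Ucp2*, the mitochondrial carrier known as an uncoupling protein, rose from 24.8, 27.9 and 24.1 TPM to 124, 101 and 125 TPM (log2 fold change 2.14, SE 0.10, adjusted p = 2.98e-07). *Hadh*, an enzyme of fatty acid oxidation whose loss causes excess insulin release, rose from 110.3, 109 and 110.3 TPM to 340.3, 320.1 and 343 TPM (log2 fold change 1.60, SE 0.05, adjusted p = 3.11e-08). Neither gene overlapped between the groups. Of the subunits of the ATP-sensitive potassium channel, *Kcnj11* was at 104 ± 5.70 TPM in WT and 79.7 ± 11.2 TPM in *Clock*-/- cells (SD, n = 3 each; log2 fold change −0.39, adjusted p = 0.0113, and 0.00333 without *Clock*-/- replicate 3). *Abcc8* was at 228 ± 11.3 and 349.8 ± 67.0 TPM (log2 fold change 0.60, adjusted p = 0.00339). Its adjusted p was 0.0115 to 0.0158 without any of WT replicates 1 to 3 or *Clock*-/- replicate 1. *Abcc8* also missed the threshold with only the 6 WT and *Clock*-/- libraries fitted.

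Of 15 genes tested that mature β cells are known to keep low, 8 rose and 4 fell, with a median log2 fold change of 0.56. *Acot7*, an acyl-CoA thioesterase, rose from 63.7, 68.7 and 67.4 TPM to 164, 164 and 147 TPM (log2 fold change 1.24, SE 0.08, adjusted p = 1.77e-06). *Igfbp4*, an IGF-binding protein, moved the other way, from 14.6, 13.6 and 14.1 TPM to 1.07, 1.78 and 1.46 TPM (log2 fold change −2.64, adjusted p = 2.98e-07). Among glycolytic and hypoxia-responsive genes, 9 of 38 rose and 7 fell. *Pklr*, the pyruvate kinase of liver, fell from 6.33 ± 0.257 to 1.55 ± 0.170 TPM (log2 fold change −1.53, adjusted p = 6e-06). *Ldhb*, a lactate dehydrogenase subunit, rose from 13.5 ± 2.11 to 37.4 ± 1.18 TPM (log2 fold change 1.42, adjusted p = 1.73e-05).

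In the endoplasmic reticulum (ER) group 19 of 40 chaperone and unfolded protein response genes fell and 1 rose (median log2 fold change −0.31), and 2 rose without *Clock*-/- replicate 2. *Kdelr3*, a receptor that returns ER proteins from the Golgi, was at 96.1 ± 6.31 TPM in WT and at 9.75 ± 0.783 TPM in *Clock*-/- cells (SD, n = 3 each; log2 fold change −3.18, SE 0.12, adjusted p = 8.92e-08). *Derl3*, a component of ER-associated degradation, fell from 62.2, 61.8 and 52.8 TPM to 11.3, 10.3 and 14.1 TPM (log2 fold change −2.22, SE 0.14, adjusted p = 2.69e-06). *Creld2*, an ER stress protein, fell from 770.2, 736 and 791 TPM to 311, 330.1 and 286 TPM (log2 fold change −1.31, adjusted p = 1.3e-06). The groups of all 3 genes were clearly apart. *Hspa5*, the chaperone BiP, was chosen after its values were seen and fell from 1946 ± 114 to 1319 ± 46.8 TPM (log2 fold change −0.56, adjusted p = 0.00011). The exception was *Ero1lb*, the ER oxidase that β cells use to fold proinsulin, which rose from 965, 873 and 796 TPM to 1539, 1271 and 1671 TPM (log2 fold change 0.76, SE 0.11, adjusted p = 0.00053).

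Cholesterol and fatty acid synthesis also fell, in 17 of 42 genes tested against 2 that rose (median log2 fold change −0.43). The number that fell was 10 without WT replicate 1 and 11 without WT replicate 2 or *Clock*-/- replicate 1, and the 2 that rose became 1 without WT replicate 2 and 0 without *Clock*-/- replicate 1. *Nsdhl*, an enzyme of cholesterol synthesis, fell from 47.9 ± 3.64 to 18.7 ± 1.60 TPM (SD, n = 3 each; log2 fold change −1.31, SE 0.10, adjusted p = 5.94e-06). Lysosomal genes leaned the other way, with 17 of 55 higher and 7 lower. *Asah1*, acid ceramidase, rose from 343, 336 and 284 TPM to 834, 724 and 886 TPM (log2 fold change 1.34, SE 0.10, adjusted p = 7.27e-06). *Arsb*, arylsulfatase B, rose from 63.2 ± 3.29 to 151 ± 16.3 TPM (log2 fold change 1.24, adjusted p = 3.26e-06). The members that fell included the cathepsins, *Ctsz* from 478 ± 4.48 to 267 ± 19.4 TPM, *Ctsl* from 436 ± 13.9 to 260.5 ± 13.2 TPM and *Ctsb* from 518 ± 26.1 to 336 ± 19.3 TPM (log2 fold changes −0.84, −0.74 and −0.62, adjusted p = 2.13e-05, 9.68e-06 and 7.48e-05).

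Antigen presentation and interferon-stimulated genes fell in 21 of 45 members tested and rose in 2 (median log2 fold change −0.55), with 1 that rose without WT replicate 1, WT replicate 2 or *Clock*-/- replicate 1 and 4 without *Clock*-/- replicate 2. *Usp18*, an interferon-induced protease that dampens interferon signalling, fell from 25.2, 26.1 and 24.6 TPM to 4.50, 4.12 and 4.71 TPM (log2 fold change −2.27, SE 0.09, adjusted p = 1.19e-07). *Tap1*, a subunit of the peptide transporter that loads MHC class I, fell from 5.42, 5.17 and 5.06 TPM to 1.73, 1.62 and 1.99 TPM (log2 fold change −1.16, SE 0.12, adjusted p = 5.29e-05). *B2m*, the shared chain of MHC class I, was chosen after its values were seen and fell from 182, 197 and 186 TPM to 94.4, 95.5 and 87.8 TPM (log2 fold change −1.02, adjusted p = 4.44e-06). The class I genes are close copies of each other, so reads may be split uncertainly between them. The 11 members in the 10 Mb window of chromosome 17 that holds the MHC, where other genes were lower too, held 9 of the falls, and 7 of these 11 fell after the median of the window was subtracted. Of the 34 members elsewhere 12 fell, and 7 fell after that subtraction.

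Nuclear subunits of the respiratory chain rose in 16 of 75 members and fell in 2 (median log2 fold change 0.27), and the number that rose was 5 without WT replicate 1, WT replicate 2 or *Clock*-/- replicate 1 and 34 without *Clock*-/- replicate 3. The 2 that fell became 0 without WT replicate 2, WT replicate 3 or *Clock*-/- replicate 1 and 1 without WT replicate 1 or *Clock*-/- replicate 3. Of the 13 messenger RNAs of the mitochondrial genome 0 passed limma's test, and 4 were higher and 0 lower at an unadjusted p under 0.05, a mark that 46.5% of all genes tested met. Of 15 mitochondrial transfer RNA genes 6 rose.

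Vesicle release genes changed in both directions, with 14 of 94 SNARE, priming and vesicle genes higher and 19 lower. These counts were 9 and 12 without WT replicate 2, and 9 were higher without *Clock*-/- replicate 1. *Syt2*, a calcium sensor of fast release, fell from 18.5 ± 1.34 to 3.28 ± 0.506 TPM (SD, n = 3 each; log2 fold change −2.20, SE 0.13, adjusted p = 1.18e-06). *Snap25*, a SNARE of the plasma membrane, fell from 106, 99.6 and 93.1 TPM to 45.6, 41.2 and 51.5 TPM (log2 fold change −1.10, SE 0.10, adjusted p = 2.26e-05). *Synpr*, a synaptic vesicle membrane protein, rose from 8.57, 9.23 and 8.13 TPM to 47.6, 40.2 and 51.9 TPM (log2 fold change 2.30, SE 0.11, adjusted p = 3.24e-07). The groups of these genes lay apart. The priming factor *Cadps2* rose from 0.922 ± 0.137 to 6.82 ± 0.765 TPM while its relative *Cadps* fell from 78.5 ± 4.30 to 43.3 ± 5.89 TPM (log2 fold changes 2.02 and −0.85, adjusted p = 1.92e-06 and 0.000103). *Doc2b*, a calcium-binding partner of SNAREs, rose from 1.89 ± 0.163 to 7.63 ± 1.68 TPM (log2 fold change 1.56, adjusted p = 4.64e-05).

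Potassium channel and neurotransmitter receptor genes fell more often than they rose, while peptide hormone and nutrient receptor genes moved in both directions. Of 42 potassium channel subunits tested 4 rose (2 without any 1 of WT replicates 1 to 3 or *Clock*-/- replicate 1) and 15 fell, and of 20 calcium and sodium channel subunits 2 rose and 7 fell. The 2 calcium and sodium channel subunits that rose became 0 without WT replicate 2, WT replicate 3 or *Clock*-/- replicate 1 and 1 without WT replicate 1 or *Clock*-/- replicate 3. Of 28 peptide hormone and nutrient receptors 8 rose and 10 fell, and of 42 neurotransmitter receptors 5 rose and 12 fell. *Oprd1*, the δ-opioid receptor, went from 14.5, 14.5 and 13.3 TPM to 0.486, 0.201 and 0.703 TPM (log2 fold change −3.38, SE 0.15, adjusted p = 1.89e-07). *Gprc6a*, a receptor for basic amino acids, rose from 3.00, 2.69 and 3.00 TPM to 13.2, 15.2 and 18.8 TPM (log2 fold change 2.09, SE 0.15, adjusted p = 4.41e-06). Downstream of such receptors, 16 of 47 genes for adenylyl cyclases, phosphodiesterases, RGS proteins and diacylglycerol kinases fell and 3 rose. *Rgs4*, a brake on Gq and Gi signalling, was at 36.3 ± 1.47 TPM in WT and 6.67 ± 0.745 TPM in *Clock*-/- cells (log2 fold change −2.29, adjusted p = 1.18e-06).

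Among axon guidance and neuronal cytoskeleton genes 29 of 63 fell and 5 rose (median log2 fold change −0.54), and among growth factor ligands, receptors and binding proteins 15 of 60 fell and 4 rose. The numbers that rose were small and rested on single libraries, as the axon guidance list had 3 without any 1 of WT replicates 1 to 3 or *Clock*-/- replicate 1 and 8 without *Clock*-/- replicate 2, and the growth factor list 1 without WT replicate 1 or 2 and 2 without *Clock*-/- replicate 1. *Ngfr*, the p75 neurotrophin receptor, fell from 69.6, 71.3 and 64.9 TPM to 5.25, 4.51 and 4.51 TPM (log2 fold change −3.60, SE 0.10, adjusted p = 1.69e-08). It was lower still in *Bmal1*-/- cells, at 0.777 ± 0.125 TPM (SD, n = 3), a difference of 1.70 between the lines (adjusted p = 1.15e-06). *Epha7*, an ephrin receptor, fell from 25.8, 23.3 and 19.9 TPM to 2.47, 2.08 and 3.74 TPM (log2 fold change −2.69, adjusted p = 1.4e-06). The falls of these receptors left no overlap with WT. *Mapt*, which encodes the microtubule protein tau, was an exception and rose from 24.3 ± 1.38 to 108 ± 12.4 TPM (SD, n = 3 each; log2 fold change 2.11, SE 0.10, adjusted p = 3.11e-07). Of 34 Notch, Wnt and Hedgehog genes tested 11 fell and 0 rose, with 2 higher and 16 lower at an unadjusted p under 0.05 in limma's test, beside 46.5% of all genes tested at that p. Of 27 imprinted genes 10 fell and 4 rose. *Gnas*, the gene of the stimulatory G protein subunit, was at 789, 758 and 767 TPM in WT and 233, 198 and 228 TPM in *Clock*-/- libraries (log2 fold change −1.81, SE 0.07, adjusted p = 1.09e-07).

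Cell cycle genes fell in 18 of 57 members and rose in 5 (median log2 fold change −0.24), and 8 and 10 fell without WT replicate 1 and WT replicate 2. Over all genes tested the number that fell was 1443 and 1444 without these libraries, in place of 2162. *Nek2*, a mitotic kinase, fell from 304, 274 and 288 TPM to 123, 114 and 131 TPM (log2 fold change −1.23, SE 0.07, adjusted p = 1.16e-06). *Cdc45*, a subunit of the replicative helicase, fell from 103, 97.8 and 98.0 TPM to 52.0, 46.5 and 51.7 TPM (log2 fold change −0.98, SE 0.07, adjusted p = 3.97e-06). *Ccnd2*, the D-type cyclin of β cells, rose from 59.3, 51.1 and 48.0 TPM to 279, 223 and 306 TPM (log2 fold change 2.32, SE 0.14, adjusted p = 1.77e-06). Cytosolic ribosomal protein genes were a contrast, as 74 of 78 did not pass the test, and so were SR and hnRNP splicing factors, of which 43 of 48 did not pass.

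**Figure D4:**
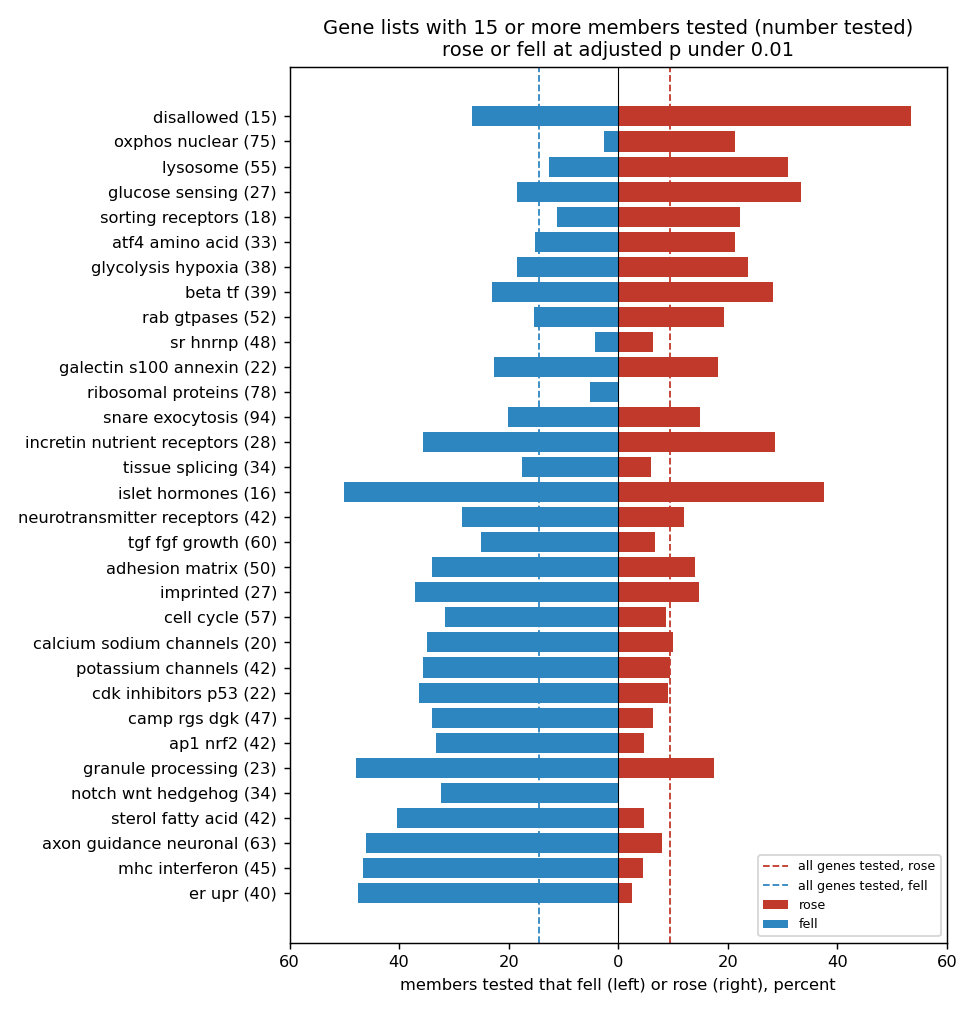
Each row is a gene list with 15 or more members tested, the number tested in parentheses. Bars to the right give the percent of these members that rose and bars to the left the percent that fell in *Clock*-/- cells, and dashed lines mark the shares of all genes tested, 9.50% and 14.4%. Lists are ordered by the difference of the bars, with the ER, antigen presentation and axon guidance lists at the bottom.

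The markers of other cell types were measured beside these changes. The summed TPM of 11 β cell markers lay between 55914 and 58319.3 in WT and between 34581.9 and 40340.9 in *Clock*-/- libraries. Most of this sum came from *Ins2* and *Iapp*, so it says little about the other members. Of the 11 markers 6 fell and 3 rose, the latter being *G6pc2*, *Nkx6-1* and *Pdx1*. Of the 11 markers of α, δ and other islet cells 6 were tested, and the sum of the list lay between 2930.61 and 3036.33 TPM in WT and between 4691.61 and 5477.17 TPM in the knockout libraries. Most of it came from *Gcg* and from *Ttr*, the transthyretin gene, which went from 2329.6 ± 53.6 to 3515 ± 381 TPM (SD, n = 3 each; log2 fold change 0.59, adjusted p = 0.00274), with an adjusted p of 0.0125 to 0.0129 without WT replicate 1, WT replicate 2 or *Clock*-/- replicate 1 and a log2 fold change of 0.24 under quantile normalization (adjusted p = 0.0932). *Pou3f4*, a regulator of α cells chosen after its values were seen, was at 2.76, 2.45 and 2.43 TPM in WT and was listed at 0 in all *Clock*-/- libraries, and the genes *Ppy* and *Ghrl* did not reach the level for testing. The sum of the exocrine and duct markers lay between 29.5366 and 33.5671 TPM in WT and between 13.5588 and 15.5169 TPM in the knockout libraries, with 5 of 18 tested. That of the stromal, endothelial and immune markers, with 2 of 18 tested, lay between 9.59931 and 10.6821 TPM in WT and between 21.2719 and 22.8345 TPM in the knockout libraries. *Cd68*, a lysosomal protein of macrophages that other cells also make, gave nearly all of the latter (9.10 ± 0.481 and 21.7 ± 0.699 TPM, SD, n = 3 each), while the defining markers *Ptprc*, *Adgre1* and *Pecam1* reached at most 0.125, 0.311 and 0.234 TPM in any of the 6 libraries. The part of these cell types in the results was not tested.

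The changes were not spread evenly over the genome. On chromosome 16 the median log2 fold change was −0.46, and 43.6% of its 427 genes tested fell, with 88.5% below 0. The medians of chromosomes 15, 5 and 1 were −0.28, −0.26 and −0.25, and those of the other autosomes and X lay between −0.02 and 0.08. On chromosome 17 the median was 0.02, but it was −0.43 in the 10 Mb window that holds the MHC, where 80 of 164 genes fell, and 0.25 to 0.40 in the windows from 40000001 to 90000000. Chromosome 2 had medians of −0.31, −0.24 and −0.32 in the windows from 160000001 to 190000000, which hold *Gnas*. Chromosome 3 had −0.22 to −0.30 in those from 120000001 to 160000000. The first windows of chromosomes 11 and 14 had medians of −0.35 and −0.42. Outside chromosome 17 and the mitochondrial genome the highest window median was 0.29, on chromosome 13. In *Bmal1*-/- cells, against the same WT libraries, the median of chromosome 16 was 0.01 and that of chromosome 11 was 0.35. Chromosomes 1, 15 and 5 were lower in that line as well, with medians of −0.35, −0.25 and −0.12. The cause of these shifts was not tested. After the medians of 10 Mb windows were subtracted, an alternative chosen after seeing the data, 1012 genes were called, 374 higher and 638 lower. By that measure 1304 genes rose and 1520 fell, in place of 1428 and 2162. Falls numbered 11 in place of 17 in the cholesterol and fatty acid list and 13 in place of 18 in the cell cycle list. They numbered 10 in place of 16 in the list of adenylyl cyclases and RGS proteins, and 19 as before in the ER list. *Cdc45* on chromosome 16 and *Creld2* on chromosome 15 still fell by that measure (log2 values of −0.52 and −1.01, adjusted p = 0.000304 and 8.14e-06), and *Sst* on chromosome 16 rose by more (2.40, adjusted p = 8.6e-07). *Vgf*, a neuropeptide precursor gene on chromosome 5, and the zinc transporter *Slc30a8* on chromosome 15 fell before but not after the subtraction (log2 values of −0.34 and −0.14 for *Vgf*, −0.49 and −0.16 for *Slc30a8*). Whether they passed before it also depended on single libraries, with an adjusted p of 0.0129 to 0.0318 for *Vgf* without any 1 of the 6 and of 0.0173 to 0.0329 for *Slc30a8* without any of WT replicates 1 to 3 or *Clock*-/- replicate 1, and of 0.01025 without *Clock*-/- replicate 2.

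Called genes also lay side by side. Runs of neighbouring tested genes called in the same direction numbered 79 for falls, with 182 of the 719 genes called lower. For rises they numbered 34, with 75 of the 394 genes called higher. Some runs hold close copies, such as *Gm9* and the *Rhox2* genes, between which reads may have been split. How many runs would arise without any grouping was not tested. Around *Clock* itself, 26 other genes were tested within 2 Mb. Of these 5 rose and 5 fell, and 3 were called, beside 7.40% of all genes. The 3 were lower, and of them *Kit* and the pseudogene *Ube2n-ps1* were chosen after their values were seen. *Igfbp7*, an IGF-binding protein, fell from 106, 112 and 112 TPM to 19.5, 15.0 and 14.7 TPM (log2 fold change −2.68, SE 0.11, adjusted p = 1e-07). *Kit*, the receptor of stem cell factor, fell from 10.5 ± 0.868 to 4.56 ± 0.670 TPM (SD, n = 3 each; log2 fold change −1.06, adjusted p = 5.84e-05). *Igfbp7* stood at 278 ± 22.4 TPM and *Kit* at 27.5 ± 0.638 TPM in *Bmal1*-/- cells (SD, n = 3 each).

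**Figure D5:**
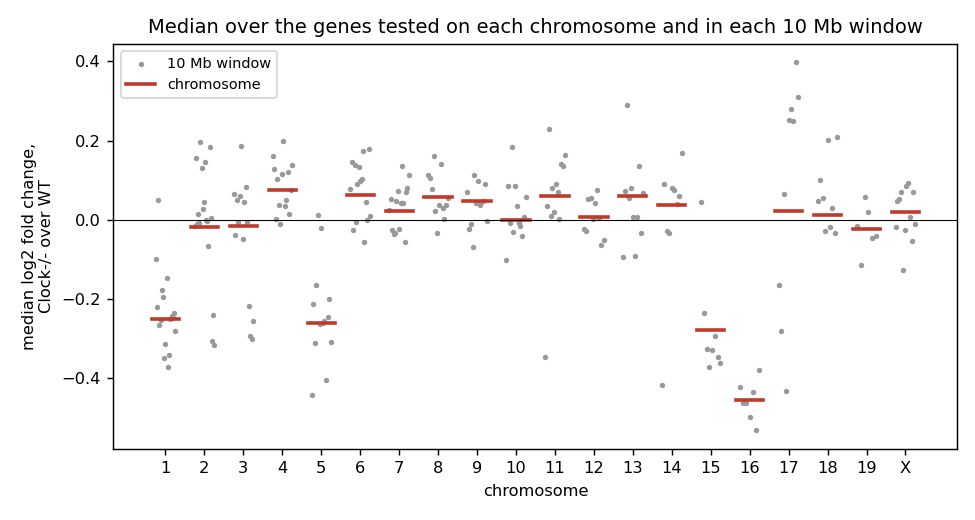
Bars give the median log2 fold change of the genes tested on each chromosome and points the medians of its 10 Mb windows with at least 20 genes tested, in order of position. Chromosome 16 lies lowest with all windows below 0, and chromosomes 1, 5 and 15 lie between it and the rest. The lowest windows of chromosomes 2, 3, 11, 14 and 17 lie well below their chromosome medians.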

How the data were processed

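RNA-seq values were the TPM deposited by the authors, 1 column per library, from poly(A) directional paired-end libraries aligned with STAR 2.5.0 and counted over exons with featureCounts 1.5.3 (mm10; gencode vM10). How TPM was derived from the counts is not given in the sources used here, and the counting strand is not given either. The authors' DESeq2 1.22.1 tables hold their own fold changes and p-values and were not used, nor were the ChIP-seq and eCLIP files. Symbols and GRCm38 positions were assigned to 20499 of 20599 gene IDs.

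Genes at 1 TPM or more in at least 3 of 9 libraries were fitted on log2(TPM + 1) with limma 3.58.1 (R 4.3.3, lmFit and eBayes with a mean-variance trend), with 3 groups of 3 libraries and Benjamini-Hochberg adjustment over 15031 genes. A call required |log2 fold change| > 1 besides the adjusted p threshold of 0.01, and the contrast of the knockout lines came from the same fit. On simulated data with 15031 genes, 96 of 100 genes changed by a log2 fold change of 1.5, 94 of 100 changed by 2 and 1 of 14831 unchanged genes were called. The changed genes were drawn from those with a WT mean of at least 5 TPM, with independent normal noise. The rates therefore do not hold for lower genes or for shifts of whole regions. Tables were made with Python 3.11.15, pandas 2.3.3 and numpy 2.4.6.

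Members and gene lists were chosen with earlier results of these data known. Genes were named by rule: tested clock genes; the 15 largest rises and falls among called genes with a mean of at least 20 TPM in the higher group and no overlap; up to 3 rises and 3 falls per list with a mean of at least 5 TPM; receptors, channels and exocytosis genes that the study names; and any tested hormone, granule, glucose sensing or β cell transcription factor gene. Others are said to be chosen after their values were seen. Alternatives covered the amount added to TPM, the filter, scaling, chromosome medians, the libraries fitted, the variance trend, a replicate block and leaving out each library. Samples were grouped by their titles. The study's methods give a minimum number of reads per library, but TPM holds no counts, so the depth behind single values cannot be read from the table and the errors given come from the replicates. Only genes tested with a RefSeq promoter entry were searched for the E-box. Results for some genes are not reported here.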

Additional observations from a re-analysis of the deposited data

How the results depend on the processing

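Of 315 genes that the rule allowed to be named, 257 passed the test, and 205 of them passed it under every one of 17 other settings that gave a value. Of the 58 that did not pass, 38 passed under none. With a mean of at least 5 TPM required, 566 genes were called, 200 higher and 366 lower, since fewer genes were tested (10822). Leaving out 1 library gave 1064 to 1220 called genes, 382 to 428 of them higher and 669 to 827 lower. Genes that rose or fell numbered 2383 (without WT replicate 2) to 4090 (without *Clock*-/- replicate 3), those that rose 936 (without *Clock*-/- replicate 1) to 1596 (without *Clock*-/- replicate 2), and those that fell 1443 (without WT replicate 1) to 2656 (without *Clock*-/- replicate 3). Other settings gave 1012 to 1328 called genes. With only the 6 WT and *Clock*-/- libraries fitted, 1031 genes rose and 1559 fell. In that fit 27 of the 315 genes no longer passed, among them *Per1*, *Hlf*, *Abcc8*, *Iapp* and *Slc30a8*. Quantile normalization gave 2074 genes that rose and 2411 that fell. The share of calls that were higher was 35.4% and moved between 32.2 and 42.4%. Directions turned for *Cyc1*, with a log2 fold change of 0.0048 after chromosome medians and 0.0538 after window medians were subtracted, for *Son*, with 0.0066 after chromosome medians were subtracted, and for *Iapp*, with 0.27 under quantile normalization, and the cause was not tested. Subtracting the window medians was chosen after seeing the data, and 930 of its 1012 calls were among the 1113.

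Libraries share replicate numbers across groups, but same-numbered libraries did not deviate together (correlations of −0.208 to 0.0742 over 9 pairs, and −0.163 to 0.212 for other pairs), so the numbers were not taken as pairs. With a replicate block 1089 genes were called, 385 higher and 704 lower, and 2801 rose or fell. The medians of chromosomes 1, 5, 15 and 16 stayed within the spread of the *Clock*-/- libraries with 0.1 added to TPM and with a mean of at least 5 TPM required. With 3 libraries per group and no read counts, small differences of low genes could not be resolved.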

Other observations

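Amino acid and stress genes that the transcription factor ATF4 controls moved in both directions in *Clock*-/- cells, with 7 of 33 tested higher and 5 lower. *Slc7a3*, a carrier of basic amino acids, rose from 32.4, 30.8 and 28.9 TPM to 74.4, 66.1 and 80.1 TPM (log2 fold change 1.23, SE 0.09, adjusted p = 8.31e-06). *Phgdh*, which opens serine synthesis, rose from 149, 139 and 144 TPM to 294, 302 and 272 TPM (log2 fold change 1.00, adjusted p = 2.25e-05). *Chac1*, a glutathione-degrading enzyme, rose from 90.9, 86.4 and 90.1 TPM to 189, 164 and 185 TPM (log2 fold change 1.00, adjusted p = 7.27e-06). No knockout library of these genes reached a WT value. In *Bmal1*-/- cells *Slc7a3* was at 14.8 ± 1.26 TPM, *Phgdh* at 68.1 ± 8.33 TPM and *Chac1* at 20.1 ± 1.30 TPM (SD, n = 3 each), each lower than in *Clock*-/- cells (adjusted p = 9.64e-08, 1.06e-07 and 3.89e-09). *Nupr1*, a stress-induced chromatin protein, fell from 17.2, 16.6 and 15.7 TPM to 4.02, 4.09 and 3.70 TPM (log2 fold change −1.82, adjusted p = 4.54e-06).

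Genes of AP-1, NRF2 and antioxidant defence fell in 14 of 42 members tested and rose in 2, and 9 fell without WT replicate 1 or 2. *Gclm*, a subunit of the enzyme that starts glutathione synthesis, fell from 116 ± 7.71 to 56.8 ± 7.31 TPM (SD, n = 3 each; log2 fold change −1.02, adjusted p = 3.3e-05). *Gpx3*, the secreted glutathione peroxidase, was at 6.13, 6.87 and 5.63 TPM in WT and was listed at 0 in all *Clock*-/- libraries. Among adhesion and matrix genes 17 of 50 fell and 7 rose (11 without *Clock*-/- replicate 2). *Bcan*, a proteoglycan of neural matrix, fell from 11.7, 12.1 and 12.0 TPM to 2.13, 2.48 and 2.29 TPM (log2 fold change −1.97, adjusted p = 1.05e-06). *Epcam*, the epithelial adhesion molecule, rose from 4.36, 4.68 and 5.36 TPM to 19.1, 15.9 and 18.7 TPM (log2 fold change 1.70, adjusted p = 8.52e-06), and *Gjd2*, the connexin 36 of β cell gap junctions, from 4.14 ± 0.531 to 13.6 ± 2.25 TPM (SD, n = 3 each; adjusted p = 2.43e-05).

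Of 34 tissue-restricted splicing regulators and other RNA-binding proteins 6 fell and 2 rose, with 2 lower without WT replicate 1 or 2. These shares of 17.6% and 5.88% lay near the 14.4% and 9.50% of all genes tested. *Srrm4*, the regulator of neuronal microexons, fell from 9.44, 7.96 and 7.03 TPM to 1.58, 1.47 and 1.84 TPM (log2 fold change −1.79, adjusted p = 6.09e-06). Of 52 Rab GTPases 10 rose and 8 fell, and 5 rose without WT replicate 2 or *Clock*-/- replicate 1 and 6 without WT replicate 3. The share that fell, 15.4%, was near that of all genes tested, and 19.2% rose. After window medians were subtracted 4 rose. *Rab17*, a GTPase of epithelial transport, fell from 23.5, 24.6 and 24.9 TPM to 8.34, 9.32 and 7.71 TPM (log2 fold change −1.42, adjusted p = 2.46e-06). *Ndrg1*, a gene known to answer hypoxia, fell from 49.3 ± 0.835 to 10.5 ± 0.835 TPM (SD, n = 3 each; log2 fold change −2.13, adjusted p = 3.46e-08), and stood at 109 ± 0.430 TPM in *Bmal1*-/- cells (n = 3), a difference of −3.26 between the knockout lines (adjusted p = 1.79e-09).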
